A study of Mus musculus with 8 samples.

Results

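Snhg1 is a spliced non-coding RNA gene whose introns carry a run of box C/D small nucleolar RNAs (snoRNAs). The members described here are the rows of the deposited small RNA table named SNORD followed by 22, 25, 26, 27, 28, 29, 30 or 31, in any letter case, with no filter on level. The rule names 8 snoRNAs, and 7 of them were present in 8 of the 964 rows analysed here. SNORD26 had 2 rows, SNORD26.1-201 and SNORD26.2-201, and no row analysed here carried the name SNORD25. The libraries came from GMLPs (granulocyte-monocyte-lymphoid progenitors) sorted from mouse bone marrow, 4 of them wild type (WT) and 4 with an inducible transgene for MLL-ENL (genotype iMLL-ENL). The fusion protein MLL-ENL drives leukaemia, and the cells of both groups were kept in culture with doxycycline (DOX) for 3 days. The promoter or cell type that drives the transgene, the age of the mice and whether a library stands for 1 mouse are not stated in the labels. P-values therefore measure only the spread between these libraries, which may be technical. The 964 rows are small non-coding RNAs, so neither the fusion nor the defining markers of GMLPs were analysed here.

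Box C/D snoRNAs are bound by fibrillarin and its partner proteins, and most of them guide the 2′-O-methylation of ribosomal RNA (rRNA). The base to be methylated pairs with the snoRNA a fixed distance upstream of the D box or of its internal copy, the D′ box. Snhg1 belongs to the 5′TOP genes, whose transcripts start with a pyrimidine tract, and its exons code for no protein. After splicing the intron lariat is opened and trimmed, and the bound proteins protect the snoRNA, so that 1 primary transcript gives rise to all snoRNAs of the gene while their stability is set one by one. SNORD22 (U22) is needed for the processing of 18S rRNA. SNORD25, SNORD27 and SNORD28 guide methylation of 18S rRNA, and SNORD26, SNORD29, SNORD30 and SNORD31 guide methylation of 28S rRNA.

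In GENCODE release M21 on GRCm38, Snhg1 lies at chr19:8723475-8726443 on the plus strand. Its transcript Snhg1-211 has 10 exons and 9 introns, and introns 1 to 8 hold 1 snoRNA gene each. Of the 8 names in the table only Snord22-201 matched a GENCODE transcript name. The sequences of the host are therefore printed under their GENCODE names, in their order along the gene, and the 7 with Gm names are not assigned to rows. They are shown because these are the snoRNAs that splicing of 1 transcript would release together. Capitals go by spelling and place only, and whether a marked motif works as a box was not tested. They mark TGATGA, the spelling of the C box core, where it starts within the first 20 bases. They also mark the last CTGA, the spelling of the D box, where it ends within the last 20 bases. All are on the plus strand, 5′ to 3′, with T for U.
Gm25855 (intron 1): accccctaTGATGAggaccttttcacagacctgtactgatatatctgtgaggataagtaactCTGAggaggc
Gm25894 (intron 2): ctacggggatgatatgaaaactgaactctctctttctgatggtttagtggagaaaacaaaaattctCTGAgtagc
Gm24452 (intron 3): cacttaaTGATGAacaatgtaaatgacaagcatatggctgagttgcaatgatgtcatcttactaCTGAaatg
Gm24453 (intron 4): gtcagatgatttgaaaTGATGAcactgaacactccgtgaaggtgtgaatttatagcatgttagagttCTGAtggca
Gm22744 (intron 5): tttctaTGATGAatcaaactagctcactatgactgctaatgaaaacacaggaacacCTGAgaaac
Gm22680 (intron 6): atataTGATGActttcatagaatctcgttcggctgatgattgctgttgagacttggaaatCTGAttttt
Gm23246 (intron 7): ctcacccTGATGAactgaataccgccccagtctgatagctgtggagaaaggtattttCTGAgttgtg
Snord22 (intron 8): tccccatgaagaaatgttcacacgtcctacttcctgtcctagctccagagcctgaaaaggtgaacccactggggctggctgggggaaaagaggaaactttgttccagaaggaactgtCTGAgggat

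The sequences were short and unlike each other. Snord22, at chr19:8725866-8725991, was 126 bases long, and the others ranged from 65 to 76 bases. All 8 held the D box and 6 held both motifs as spelled, searched on the transcript strand, against 20.8% of the 1483 GENCODE snoRNA sequences. Those 1483 are snoRNAs of every class, not only box C/D, and their share with the D box alone was not computed. Between the 28 pairs of host snoRNAs the identity over the whole alignment ran from 40.5% to 61.3%. No other GENCODE snoRNA reached 80% identity with any of the 8. The closest pair was Gm22680 and Gm23389 at 79.7%. Reads of full length are thus separable by sequence within the host, but how the authors assigned reads with more than 1 match is not stated in the labels or the file. The snoRNAs of introns 1 to 6 and 8 ended 65 to 77 bases before the next exon, and Gm23246 in intron 7 ended 121 bases before it.

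**Figure D1:**
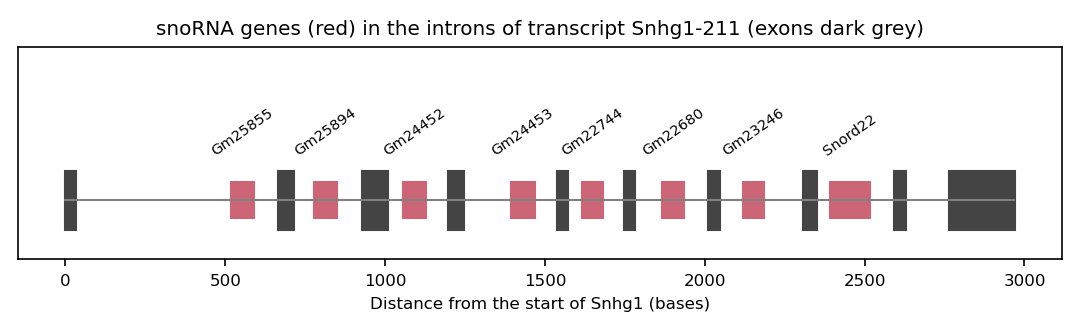
Map of transcript Snhg1-211 with the distance from the start of Snhg1 in bases on the x axis, exons as dark grey boxes and snoRNA genes as red boxes with their GENCODE names. The first 8 of the 9 introns hold 1 snoRNA gene each, and Snord22 in intron 8 is the longest.

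Levels are reads per 1000000 reads of a library (RPM), and values listed by library are in the order of replicates 1 to 4. By the estimate described with the processing, 5910000 to 9270000 reads stood behind the scale of a library, and 8431 to 18113 of them fell in the 8 rows. All rows together summed to 334242, 384453, 333629 and 300012 RPM in WT, against 285550, 267474, 259667 and 291915 RPM in iMLL-ENL. Every iMLL-ENL sum was thus lower, and the reads outside these rows were not analysed here. Results with division by these sums are given below, and the cause of the difference was not tested. The lowest row, SNORD26.2-201, rested on 20 to 43 reads and every other row on at least 553. A level of 3 reads lay at 0.323 to 0.507 RPM, which covers counting error only. WT replicate 2 stood apart over all tested rows, with a mean correlation of 0.908 with the other WT libraries against 0.955 to 0.968 for those. Within the 8 rows it was not the library that stood apart: WT replicate 4 held the highest WT value in all 8 rows, and iMLL-ENL replicate 4 the highest of its group in 7. In bulk libraries, fewer cells of a type and less RNA per cell cannot be told apart, and whole snoRNAs and their fragments were not told apart.

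The comparison of iMLL-ENL with WT asks how the small RNA content of these progenitors differs with the fusion. Within the Snhg1 snoRNAs 3 rows rose in iMLL-ENL, Snord22-201, SNORD26.1-201 and SNORD28.1-201, each to about 1.5 times its WT level (ratios of 1.48 to 1.55). SNORD30.1-201 fell to 0.598 times its WT level. SNORD27.1-201, SNORD29.1-201 and SNORD31.1-201 did not pass the test, and SNORD26.2-201 was below the filter and left out of this fit. Calls are adjusted p-values under 0.05 from limma on log2(RPM + 1), with Benjamini-Hochberg adjustment over the 633 rows in which at least 4 libraries reached 10 RPM. Among these 633 rows 28.9% were called, 20.4% as higher and 8.53% as lower. The members' 3 higher and 1 lower of 7 tested rows stand beside that background and are read as single rows only. The median log2 fold change was 0.18 over the 7 tested members and 0.31 over all tested rows.

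SNORD30.1-201, a guide for 28S rRNA, was at 532, 644, 425 and 736 RPM in WT, against 366, 304, 310 and 418 RPM in iMLL-ENL. Every iMLL-ENL library lay below every WT library, as in 11.4% of all tested rows. The means were 584 ± 135 RPM for WT against 349 ± 54 RPM for iMLL-ENL (SD, n = 4). The log2 fold change was -0.72 ± 0.20 (SE, limma adjusted p = 0.029), which is -1.03 relative to the median of all tested rows. This call ended when WT replicate 1 or any of iMLL-ENL replicates 1, 2 and 3 was left out. Over the 8 such omissions the adjusted p reached 0.082 and the log2 fold change ran from -0.86 to -0.60. Dividing each library by its sum over all rows also ended it (-0.43, adjusted p = 0.115).

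SNORD26.1-201, also a guide for 28S rRNA, moved the other way. It was at 349, 322, 340 and 445 RPM in WT, against 473, 472, 500.2 and 711 RPM in iMLL-ENL. All iMLL-ENL libraries lay above all WT libraries, as in 27.2% of all tested rows. Its means were 364 ± 55 and 539 ± 115 RPM (SD, n = 4), a log2 fold change of 0.56 ± 0.18 (SE, limma adjusted p = 0.047). The second row of this snoRNA, SNORD26.2-201, was at 4.62, 3.38, 3.38 and 4.91 RPM in WT, against 4.86, 3.77, 3.98 and 5.39 RPM in iMLL-ENL. These groups overlapped, with means of 4.07 ± 0.81 and 4.50 ± 0.76 RPM (SD, n = 4, exact permutation p = 0.49 for the log2(RPM + 1) means, two-sided, over the 70 assignments of libraries). The table gives no position for either row, so whether SNORD26.2-201 is a second gene copy was not tested.

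SNORD28.1-201, a guide for 18S rRNA, was at 185, 172, 126 and 222 RPM in WT, against 249, 224, 276 and 325 RPM in iMLL-ENL. The groups did not overlap, although WT replicate 4 and iMLL-ENL replicate 2 lay side by side. The means were 176 ± 40 and 269 ± 43 RPM (SD, n = 4), with a log2 fold change of 0.62 ± 0.19 (SE, limma adjusted p = 0.041). Snord22-201, the 18S processing snoRNA of intron 8 whose sequence is printed above, had much the same profile. It was at 123, 134, 95.5 and 197 RPM in WT, against 195, 194, 205 and 256 RPM in iMLL-ENL. WT replicate 4 overlapped with the 2 lowest iMLL-ENL libraries. The means were 137 ± 43 and 213 ± 30 RPM (SD, n = 4), a log2 fold change of 0.67 ± 0.21 (SE, limma adjusted p = 0.046).

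The calls of these 3 rows that rose lay close to the threshold. Each ended without WT replicate 1, WT replicate 3 or any 1 iMLL-ENL library, and each held without WT replicate 2 or 4. Over these omissions the adjusted p reached 0.112 for SNORD26.1-201, 0.097 for SNORD28.1-201 and 0.117 for Snord22-201. All 3 also ended after TMM scaling (trimmed mean of M-values, adjusted p of 0.346 to 0.605), after scaling to the other Snord rows (0.162 to 0.545) and in limma without trend and robust prior (0.053 to 0.055). An exact permutation test of each row's log2(RPM + 1) means, two-sided and unadjusted, gave p = 0.086 for Snord22-201. For SNORD26.1-201, SNORD28.1-201 and SNORD30.1-201 its p was 0.0286, the smallest that 4 against 4 libraries allow. The log2 fold changes of the 3 rows that rose stayed above 0 in every setting run. Relative to the median of all tested rows they were 0.25 for SNORD26.1-201, 0.31 for SNORD28.1-201 and 0.36 for Snord22-201.

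The remaining guides differed by less than the test could call. SNORD27.1-201, which guides 18S rRNA, was at 304, 297, 230 and 365 RPM in WT, against 275, 234, 241 and 295 RPM in iMLL-ENL. Its groups overlapped, with means of 299 ± 55 and 261 ± 29 RPM (SD, n = 4) and a log2 fold change of -0.18 ± 0.17 (SE, limma adjusted p = 0.43). SNORD31.1-201, a 28S guide, was at 107, 124, 112 and 133 RPM in WT, against 93.0, 88.9, 90.3 and 129 RPM in iMLL-ENL. Of the iMLL-ENL libraries 3 lay below every WT library and replicate 4 lay among them (119 ± 11 and 100.2 ± 19.0 RPM, SD, n = 4, log2 fold change -0.26 ± 0.16, SE, limma adjusted p = 0.23). SNORD29.1-201, which also guides 28S rRNA, was at 141, 98.3, 93.5 and 168 RPM in WT, against 146, 132, 143 and 130 RPM in iMLL-ENL. Its iMLL-ENL libraries all fell inside the WT range. The means were 125 ± 35 and 138 ± 8 RPM (SD, n = 4), a log2 fold change of 0.18 ± 0.20 (SE, limma adjusted p = 0.51).

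**Figure D2:**
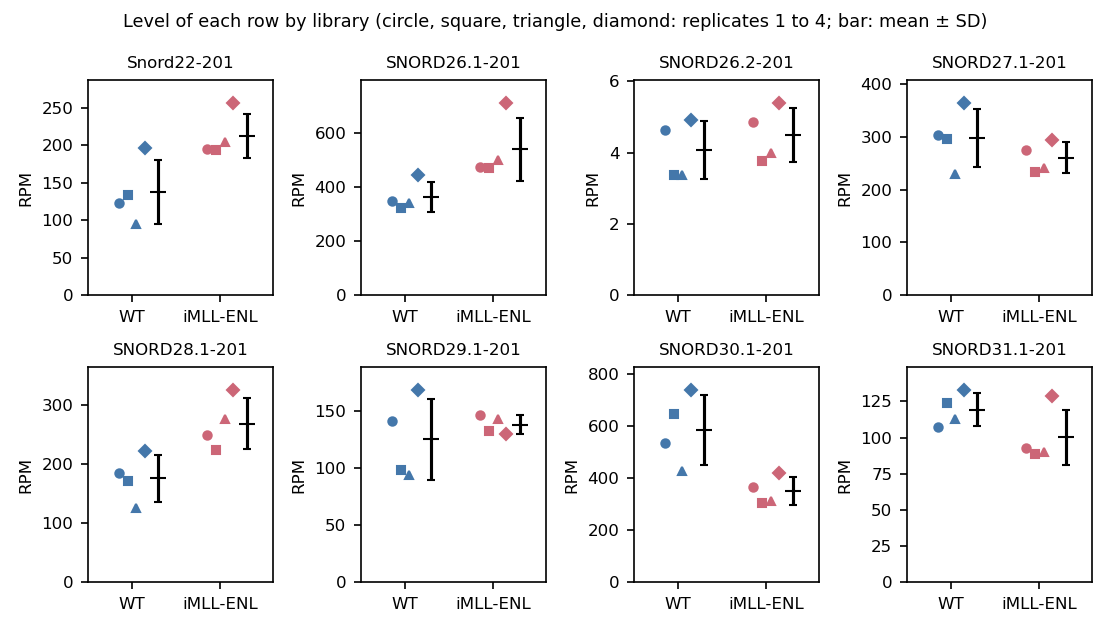
Level in RPM of each of the 8 rows, 1 panel per row with its own y axis from 0, with WT libraries in blue, iMLL-ENL libraries in red, symbols for replicates 1 to 4 and a bar for the mean ± SD. SNORD30.1-201 is lower in all 4 iMLL-ENL libraries, SNORD26.1-201 and SNORD28.1-201 are higher in all 4, and the groups of the other 5 rows overlap.

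The sum of the 8 rows hid these shifts. It was 1745, 1794, 1426 and 2269 RPM in WT, against 1803, 1653, 1769 and 2269 RPM in iMLL-ENL. The groups overlapped across nearly their whole range, with means of 1808 ± 348 and 1873 ± 271 RPM (SD, n = 4) and a ratio of 1.04. No test was made on the sum, since the members were chosen with earlier results known. Grouped by target, the 2 rows of 18S guides summed to 475 ± 95 RPM for WT against 530 ± 67 RPM for iMLL-ENL (SD, n = 4). The 5 rows of 28S guides summed to 1196 ± 214 and 1131 ± 178 RPM, and both groupings overlapped between the genotypes. Of the 18S guides 1 rose and 1 did not pass the test, and of the 4 tested 28S rows 1 rose, 1 fell and 2 did not pass, so among the 28S rows the calls went both ways, on 1 row each.

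Shares within the 8 rows do not depend on how a library is scaled, and more of them than of the levels separated the genotypes without overlap. A lower share of SNORD30, the largest in WT, by itself raises the share of every other snoRNA. Shares of the sum without SNORD30 were not computed, so the separation of the higher shares may rest in part on SNORD30. SNORD30 took 30.5%, 35.9%, 29.8% and 32.4% of the reads of the 8 rows in WT, against 20.3%, 18.4%, 17.5% and 18.4% in iMLL-ENL. Its mean share was 32.2% ± 2.7 for WT against 18.7% ± 1.2 for iMLL-ENL (SD, n = 4), a gap several times the spread within either group. SNORD26, both rows summed, went the opposite way, from 20.2%, 18.1%, 24.1% and 19.8% in WT to 26.5%, 28.8%, 28.5% and 31.6% in iMLL-ENL (means of 20.6% ± 2.5 and 28.8% ± 2.1). The most common snoRNA among these reads was thus SNORD30 in all 4 WT libraries and SNORD26 in all 4 iMLL-ENL libraries. These are shares of reads, not divided by length.

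SNORD28 went in share from 9.70% ± 0.71 to 14.3% ± 0.9 and SNORD22 from 7.47% ± 0.85 to 11.4% ± 0.4 (SD, n = 4), with no overlap between the groups. SNORD27 was at 16.5% ± 0.6 and 14.0% ± 1.0 and SNORD31 at 6.70% ± 0.91 and 5.33% ± 0.26, both lower in every iMLL-ENL library. SNORD29 was at 6.87% ± 1.11 and 7.48% ± 1.18, with overlapping groups. In all, 3 snoRNAs had a higher share in every iMLL-ENL library, 3 a lower one and 1 overlapped. The shares of 1 sum are tied to each other, so these are not separate results, and they carry no test. Taking every tested row of the table over the same sum, of which most are no part, 21.8% were higher and 9.64% lower in every iMLL-ENL library.

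**Figure D3:**
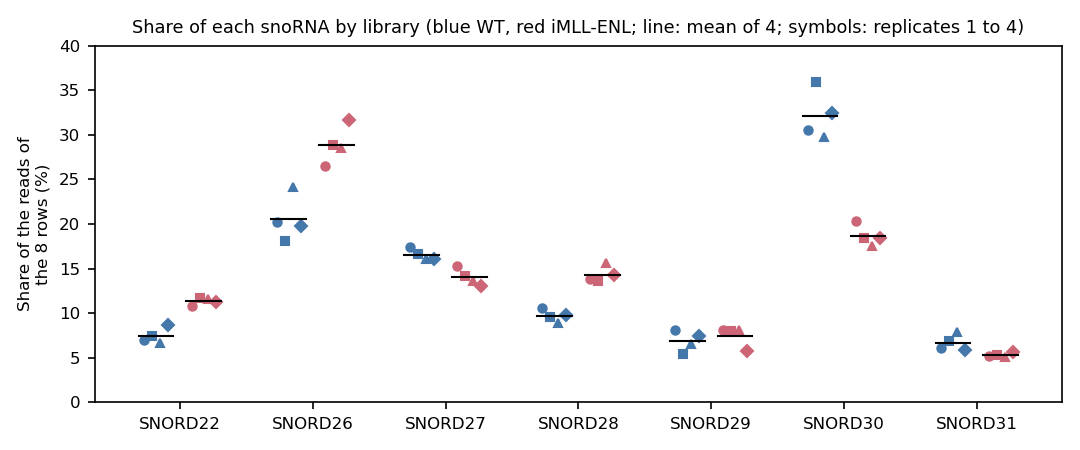
Share of each snoRNA in the reads of the 8 rows, in percent, for every library (blue WT, red iMLL-ENL, symbols for replicates 1 to 4, line for the mean of 4). SNORD30 leads in WT at 29.8% to 35.9% and SNORD26 leads in iMLL-ENL at 26.5% to 31.6%, and the groups overlap only for SNORD29.

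Ratios taken within a library put the same values in another form and are not a second result. All were divided by SNORD30.1-201, the member called as lower, so higher ratios in iMLL-ENL follow in part from that choice. How many of all tested rows would separate over the same divisor was not computed. SNORD26.1-201 held 0.655, 0.50, 0.80 and 0.605 reads for each read of SNORD30.1-201 in WT, against 1.29, 1.55, 1.61 and 1.70 in iMLL-ENL. The mean ratio was 2.41 times as high in iMLL-ENL. Snord22-201 over SNORD30.1-201 went from 0.233 ± 0.025 to 0.611 ± 0.056 and SNORD28.1-201 over SNORD30.1-201 from 0.303 ± 0.033 to 0.772 ± 0.089 (SD, n = 4). SNORD27.1-201 over SNORD30.1-201 went from 0.517 ± 0.048 to 0.751 ± 0.032. SNORD31.1-201 was closest to SNORD30.1-201, with ratios of 0.180 to 0.265 in WT and 0.254 to 0.308 in iMLL-ENL that overlapped.

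Over the 8 libraries, Snord22-201 and SNORD28.1-201 had the most similar profiles of the 21 pairs of tested members, with a root mean square difference of 0.118 between their centred log2(RPM + 1) values. The least similar were Snord22-201 and SNORD30.1-201 at 0.705. Centring was over all 8 libraries, so these distances hold the genotype difference and in part restate the fold changes. The rows outside the family most like the sum of the 8 rows were tRNA1053-LysCTT at 0.0957, Snord42b-201 at 0.0989, SNORD36.1-201 at 0.102, SNORD45.1-201 at 0.103 and Snord100-201 at 0.113. None of these 5 rows passed the test. They were picked for likeness to a sum that differed little between the genotypes on the deposited scale, so this follows from the choice.

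Which members were called depended on the scale, although quantile normalization kept the same 4 calls, 3 higher and 1 lower. SNORD30.1-201 was called lower under every scaling run except division by the sum over all rows. The median of all tested rows lay at 0.31 on the deposited scale, at -0.08 after TMM scaling and at -0.10 after scaling to the other Snord rows. After TMM scaling 0 members were higher and 3 lower, against 5.53% and 20.4% of all rows. SNORD30.1-201 was then at -1.12 ± 0.17 (SE, limma adjusted p = 0.0037), SNORD31.1-201 at -0.66 ± 0.14 (0.012) and SNORD27.1-201 at -0.58 ± 0.14 (0.018). The 3 rows that rose on the deposited scale were at 0.16 for SNORD26.1-201, 0.22 for SNORD28.1-201 and 0.27 for Snord22-201 (adjusted p of 0.61, 0.39 and 0.35). Scaling to the other Snord rows likewise called 0 higher (5.37% of all rows) and 3 lower (19.6%), the same 3 rows, and division by the sum over all rows called 3 higher and 0 lower. In the authors' deposited table SNORD30.1-201 had a log2 fold change of -1.13 and an FDR of 0.014, where 16.5% of all rows had an FDR under 0.05. No other member was called there. The authors' deposited table has SNORD31.1-201 at -0.66 (FDR 0.19), SNORD27.1-201 at -0.58 (0.27) and the other 5 rows between -0.25 and 0.24.

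**Figure D4:**
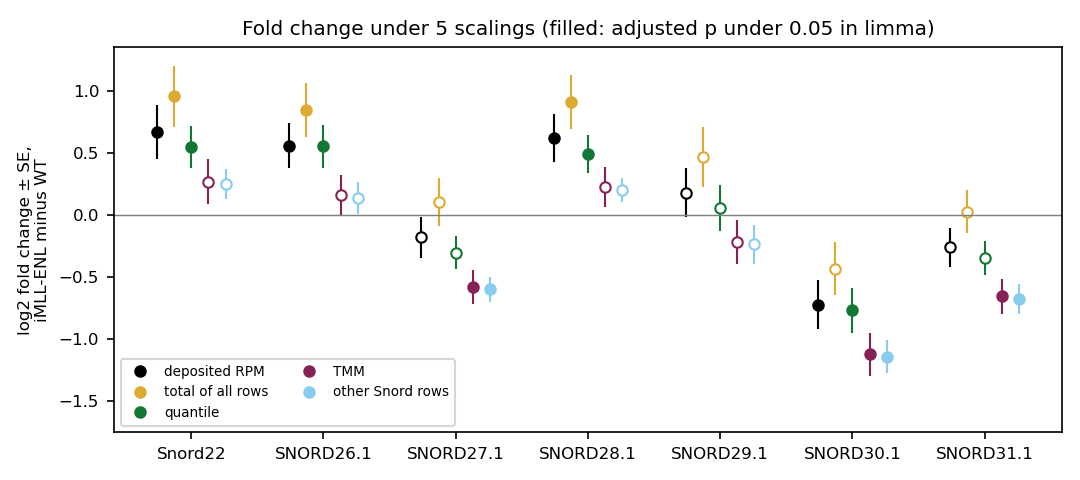
Log2 fold change of iMLL-ENL minus WT (± SE) of the 7 tested rows under 5 scalings, filled where the limma adjusted p was under 0.05. SNORD30.1 is below 0 under all 5, Snord22, SNORD26.1 and SNORD28.1 are above 0 under all 5, and the order of the rows changes little while all points move together.

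Set against the other box C/D snoRNAs, the Snhg1 rows took a smaller share in iMLL-ENL as a sum, but not row by row. They held 11.8%, 12.5%, 11.8% and 12.6% of the reads in Snord rows in WT, against 9.82%, 9.87%, 9.40% and 9.92% in iMLL-ENL, with no overlap. Without SNORD30.1-201 the shares were 8.60% ± 0.22 and 8.08% ± 0.17 (SD, n = 4), still without overlap. Without SNORD30.1-201 and SNORD44.1-201, the most abundant Snord row, they were 9.34% ± 0.24 and 9.06% ± 0.14 and overlapped. After scaling to the other Snord rows, the log2 fold changes of SNORD30.1-201, SNORD31.1-201, SNORD27.1-201 and SNORD29.1-201 were -1.14, -0.68, -0.60 and -0.24. Those of Snord22-201, SNORD28.1-201 and SNORD26.1-201 were 0.25, 0.20 and 0.14, and none of these was called. How often other sets of Snord rows separate the genotypes in share was not computed.

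On the deposited scale 22 of the other 121 tested Snord rows rose and 0 fell, beside 20.4% higher and 8.53% lower over all rows. Their median log2 fold change was 0.28, with the lowest at -0.67. After TMM scaling 6 of them were called higher and 17 lower, and the median was -0.12, so their direction depended on the scale. Gas5, another non-coding 5′TOP host, had 7 snoRNA rows. Of these 1 was called higher, 0 lower and 6 neither way on the deposited scale, and the median was 0.25 with a range from -0.12 to 0.86. After TMM scaling 0 were higher and 1 lower, with a median of -0.15. The row that rose was SNORD44.1-201, the most abundant of them, from 1113 ± 148 to 2017 ± 170 RPM (SD, n = 4, log2 fold change 0.86 ± 0.17, SE, limma adjusted p = 0.0099), and after TMM scaling it was at 0.46 (0.078). Rpl13a, which codes for a ribosomal protein, had 4 rows, of which 1 rose and 3 did not pass on the deposited scale, and 0 were called either way after TMM scaling. Its median was 0.39 with a range from 0.14 to 0.67, against -0.0051 after TMM scaling, and its most abundant row Snord32a-201 was at 151 ± 52 and 175 ± 27 RPM (limma adjusted p = 0.48). The range over the 7 tested Snhg1 rows ran from -0.72 to 0.67. Whether rows of 1 host differ more among themselves at Snhg1 than at the other hosts was not tested.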

How the data were processed

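Small RNA libraries were made with a QIAseq miRNA kit from 8 samples, per the labels' protocols. The authors deposited 1 table of values by library, with their own log2 fold change, mean log2 CPM, p-value and FDR. Its 8 value columns are read here as RPM, although the table is titled TPM, because the deposited values of each library are whole multiples of 1 step within 0.0051 RPM for rows of every class. That step gives the depth estimates. The build was GRCm38, per the submitters' processing notes, and the aligner, counting and filters are not stated. No count model was run on these scaled values.

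Groups were compared with limma 3.58.1 (statmod 1.5.0, R 4.3.3) on log2(RPM + 1), trended and robust, two-sided, over the rows with at least 10 RPM in 4 libraries (633 of 964), so fold changes of low rows are understated. Sums and shares were computed in Python 3.11.15 with pandas 2.3.3 and are given without a test. Sequences, names and coordinates come from GENCODE M21. Every member row is named. Members, lists and roles were chosen with earlier results of these data known. The other lists are the Gas5, Rpl13a and remaining Snord rows.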

Additional observations from a re-analysis of the deposited data

Results flagged for a closer look

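Values far from the other 3 libraries of their group were found in 3 of the 32 groups of 4 values checked (levels of the 8 rows, their sum and the 7 shares), where chance flags about 1 in 20. All 3 belong to iMLL-ENL replicate 4. SNORD26.1-201 was at 711 RPM there, and without that library its log2 fold change was 0.42 (limma adjusted p = 0.095). SNORD31.1-201 was at 129 RPM there, and without it the log2 fold change was -0.38 (0.071). SNORD29 took 5.71% of the reads of the 8 rows there, against 8.0% to 8.12% in the other iMLL-ENL libraries.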

How the results depend on the processing

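Pseudocounts of 0.5 and 10, no filter on low values, quantile normalization and sample quality weights (whose fit stopped short of its tolerance) kept 4 members called, 3 higher and 1 lower. Limma without trend and robust prior called 1, SNORD30.1-201, with the other 3 at adjusted p of 0.053 to 0.055. The count over all rows was 183 (129 higher, 54 lower), 282 with no filter (230 and 52), 278 with values divided by the sum over all rows (251 and 27) and 457 with quality weights (322 and 135). Leaving out 1 library gave 59 (without WT replicate 1) to 358 (without WT replicate 2) over all rows and 0 to 4 for the members. Leaving out WT replicate 1, or 1 of iMLL-ENL replicates 1, 2 and 3, left 0 members called in limma, with 4 at an unadjusted p under 0.05 in each case, and WT replicate 3 or iMLL-ENL replicate 4 left 1. The cause was not tested. The ratio of the sums, 1.04, was 0.788 after TMM scaling, 1.25 with division by the sum over all rows and 0.778 with division by the other Snord rows, and 0.963 to 1.13 without single libraries. Among members not called, log2 fold changes changed sign for SNORD27.1-201 (0.11) and SNORD31.1-201 (0.026) with division by the sum over all rows, and for SNORD29.1-201 after TMM scaling (-0.22) and with division by the other Snord rows (-0.24). With a replicate block 193 rows and the same count of 4 members were called, the members at limma adjusted p of 0.019 to 0.033. Same-numbered libraries correlated at 0.389, 0.286, -0.133 and 0.42 in their deviations, and 3 of 4 correlated best with their own number. The main fit did not take the numbers as pairs, and whether they are pairs was not tested. Both edgeR alternatives were not run, so no count model stands beside these fits. By the depth estimate the values fell on whole reads in every library. The smallest value above 0 lay above 1 read in most columns. At 20 to 43 reads, SNORD26.2-201 could show only large differences.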
